A study of Mus musculus with 15 samples.

Results

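The genes described here are 8 transcription factors of neural development, Pax6, Sox1, Neurog1, Neurog2, Olig2, Nkx2-2, Pax3 and Lhx2, in DNA of mouse embryonic stem cells (mESCs). They were chosen by name, with earlier results of these data known. All 8 met the conditions set for a CG-dense promoter, which 12287 of 21755 protein-coding genes met. The conditions were at least 30 CGs within 500 bp of the transcription start site (TSS) and a CG island there. CGs outside islands within 1 kb of that island were also required. Their loci, taken as the GENCODE M21 gene span with 5 kb on both sides on mm10, hold 5570 of the 21353092 CGs counted. The DNA came from the mESC line E14TG2a, kept on gelatin with LIF and serum. In hmTOP-seq, BGT, a glucosyltransferase, placed an azide-carrying glucose on 5-hydroxymethylcytosine (5hmC), an oligonucleotide was tethered to it, and a polymerase was primed from the tether, which places the start of each read beside the tagged CG. Libraries were made from 500, 50 and 5 ng of DNA with 2 technical replicates each, and 6 control libraries had the same inputs and 2 replicates each but no BGT labeling. uTOP-seq, which reads unmodified CGs (uCGs) by the same principle, had 3 replicates of 300 ng. The labels name no treatment or genotype that differs between groups, and the replicates are technical, so that p-values measure the spread between libraries alone.

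These genes are textbook examples of bivalent promoters, in which the activating mark H3K4me3 and the Polycomb mark H3K27me3 lie on the same CG island in embryonic stem cells, where the gene is silent but can be induced. TET dioxygenases oxidize 5-methylcytosine to 5hmC, and TET1 is known to occupy CG-dense promoters of this kind. Pax6 specifies eye and forebrain progenitors, Sox1 is among the earliest neuroectoderm markers, Neurog1 and Neurog2 are proneural factors, Olig2 and Nkx2-2 pattern the ventral neural tube, Pax3 marks dorsal neural tube and neural crest, and Lhx2 acts in forebrain and eye. Histone marks and RNA were not measured in these libraries, so the bivalent state of the 8 promoters could not be checked here, and they are called by their names.

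Depth was between 14884939 and 32502791 reads in the labeled hmTOP-seq libraries, between 20120568 and 28412885 in uTOP-seq and between 3409 and 10072 in the controls. The hmTOP-seq and uTOP-seq libraries differed in the share of reads on some chromosomes, named here after their values were seen. Relative to the library mean, chromosome 8 was at 1.29 in both 500-ng libraries and at 1.04 to 1.05 in uTOP-seq, and chromosome 14 at 0.822 and 0.829 against 0.641 to 0.657. The island and edge of Hprt had 2 and 33 5hmC reads at 500 ng but 0 and 0 uCG reads. Whether both assays used the same DNA preparation was not tested, and differences between assays and between preparations cannot be told apart. Values are given as reads per CG of a region, or as relative values, in which reads per CG are divided by the mean over all CGs of the same library. Each gene was divided into the promoter island (CG islands within 500 bp of the TSS), the island edge (1 kb outside each end, without island CGs), the gene body outside islands and edges, and the remaining flanks. The islands were between 299 bp (Nkx2-2) and 2475 bp long (Sox1), with 24 to 286 CGs. Neurog1, Neurog2 and Olig2 are so short that island and edge take up the whole gene, so gene bodies exist for 5 of the 8 genes, and that of Sox1 has only 9 CGs. Neurog1, Neurog2 and Pax3 have no other annotated gene in their locus, whereas the Pax6 locus also holds the antisense gene Pax6os1 and part of Elp4, and the Nkx2-2 and Lhx2 loci hold 2 antisense genes each. The Sox1 locus overlaps 3 other genes (Sox1ot, Gm45560 and the microRNA gene Gm25239) and the Olig2 locus 1 (Gm49614).

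The Neurog1 promoter, whose edge was the highest of the 8 genes in 5hmC, is shown at single CGs as an example. Below are the 250 bases before its TSS (chr13:56252164-56252413, mm10, minus strand), which lie inside the island, and 250 bases around the CG with most 5hmC reads in its edge (chr13:56252821-56253070, minus strand), followed by the 250 bases before the TSS of Lhx2 (chr2:38339031-38339280, plus strand). They are shown because CG-rich and 5hmC-rich sequence lie within 1 kb of each other. Capitals mark CGs with a read in both 500-ng libraries.
Neurog1 before the TSS: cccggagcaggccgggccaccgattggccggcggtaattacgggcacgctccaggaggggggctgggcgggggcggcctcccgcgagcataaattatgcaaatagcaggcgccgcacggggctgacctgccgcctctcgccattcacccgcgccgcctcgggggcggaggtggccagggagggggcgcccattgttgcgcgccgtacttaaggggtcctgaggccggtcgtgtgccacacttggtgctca
Neurog1 edge: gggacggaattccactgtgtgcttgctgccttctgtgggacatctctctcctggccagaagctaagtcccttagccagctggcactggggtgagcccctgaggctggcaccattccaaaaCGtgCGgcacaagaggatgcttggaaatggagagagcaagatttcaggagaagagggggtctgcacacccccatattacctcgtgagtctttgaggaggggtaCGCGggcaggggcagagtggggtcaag
Lhx2 before the TSS: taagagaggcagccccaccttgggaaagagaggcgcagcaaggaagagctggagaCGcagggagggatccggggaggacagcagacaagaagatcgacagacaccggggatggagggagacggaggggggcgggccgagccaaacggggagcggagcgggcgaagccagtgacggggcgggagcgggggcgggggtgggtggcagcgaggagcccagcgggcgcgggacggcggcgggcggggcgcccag

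None of the 27 CGs before the Neurog1 TSS had a 5hmC read in either 500-ng library, whereas 12 of them had a uCG read in all 3 uTOP-seq libraries. In the edge window 4 of the 6 CGs had 5hmC reads in both libraries, 55 and 49 reads in sum, and 3 had uCG reads in all 3. The window was centered on the edge CG with most 5hmC reads, which gave 41 and 33 of them, so a high sum follows from the choice. Windows chosen in the same way held 13 and 6 reads at Neurog2, 11 and 14 at Pax6 and 136 and 63 at Olig2. Before the TSS of Lhx2, 1 of 25 CGs had 5hmC reads in both libraries and 1 had uCG reads in all 3, and the window held 6 and 3 5hmC reads and 11, 5 and 6 uCG reads, so this stretch was sparsely read in both assays.

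In each locus the CG with most 5hmC reads at 500 ng is shown with 14 bases on both sides, read on the strand of the gene, with the CG in capitals, because these sites carry the largest single counts of the 8 genes.
Pax6: gcctcttctgtcccCGgaactctgctaagg
Sox1: tccacccagagagcCGggaggcaggcacgc
Neurog1: cattccaaaacgtgCGgcacaagaggatgc
Neurog2: ttgcaggcagccccCGtggagaggtggagc
Olig2: tttctcagcctgccCGtccgccaccggcaa
Nkx2-2: ctgttctgtctcacCGtgacttcatgagtc
Pax3: gttttcttatccccCGcatgcactgctctg
Lhx2: gcagcggcttggctCGgtggttgcctggag

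None of these 8 CGs lies in a promoter island. The Pax6 site (chr2:105673779-105673780, in an exon 2.35 kb upstream of the TSS used, since Pax6 has several starts) had 56 and 46 reads at 500 ng. The Nkx2-2 site (chr2:147182036-147182037, intron, 4.07 kb downstream) had 41 and 57 reads. The Pax3 site (chr1:78182097-78182098, intron, 14.7 kb downstream) had 44 and 42 reads, and the Lhx2 site (chr2:38353118-38353119, intron, 13.8 kb downstream) 29 and 29. The other 4 sites lie outside the named genes. The Olig2 site (chr16:91229231-91229232) had 42 and 38 reads, the Neurog1 site (chr13:56252945-56252946, the 1 of the 8 that lies in an edge) 41 and 33, the Sox1 site (chr8:12391151-12391152) 50 and 24, and the Neurog2 site (chr3:127630849-127630850) 49 and 26.
These sites were also read at 50 ng, with 6 to 64 reads in every library. At 5 ng the 2 libraries were often far apart, as for the Neurog2 site with 4 and 45 reads and the Pax6 site with 22 and 1, while the Pax3 site had 22 and 44 and the Neurog1 site 20 and 30, and the Lhx2 site had no read in either. No control library had a read at any of the 8 sites. With 34811 control reads over 21353092 CGs, hardly any read could fall on so few sites, so this says little about background. All 8 had at least 1 uCG read as well, with means over the 3 uTOP-seq libraries from 3.33 to 9.67 reads.

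**Figure D1:**
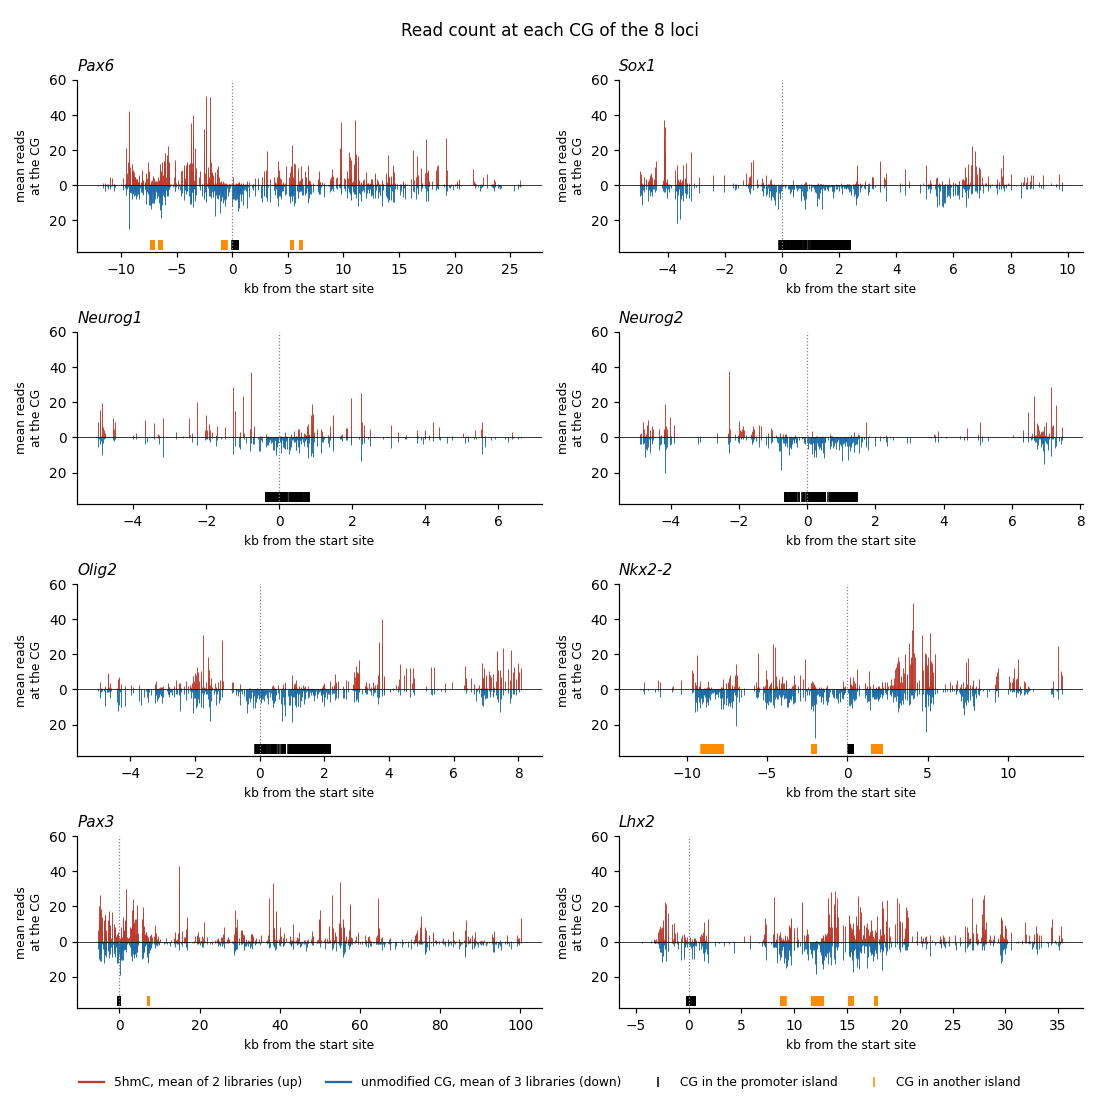
Mean read count at each CG of the 8 loci against the distance from the TSS in kb, with 5hmC upward (2 libraries of 500 ng) and uCG downward (3 libraries of 300 ng), and with ticks at the bottom for CGs of the promoter island (black) and of other islands (orange). 5hmC peaks, up to 51 reads at Pax6, stand outside the promoter islands, while uCG reads are spread over islands and their surroundings.

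At the promoter islands, 5hmC was low in reads per CG but higher than at most CG-dense promoters. The Sox1 island had 23 and 27 reads in the 2 libraries of 500 ng over 286 CGs, which is 0.0804 and 0.0944 reads per CG and the lowest level of the 8. Neurog2 followed with 0.135 and 0.192 and Lhx2 with 0.230 and 0.126 reads per CG, and these values of Neurog2 and Lhx2 overlap. Pax6 had 0.394 and 0.258. Neurog1, Olig2 and Pax3 lay close to each other, at 0.585 and 0.610, 0.702 and 0.445, and 0.551 and 0.776 reads per CG, and their ranges overlap. The Nkx2-2 island, the shortest, was highest with 1.71 and 1.54 reads per CG, above every other of these islands in both libraries. This holds for the TSS used, the start with most CGs within 500 bp. The island at the 5′ end of the Nkx2-2 gene record (112 CGs) had 0.25 and 0.241 reads per CG.
The relative value of the 8 islands had a median of 0.297 (range 0.0580 to 1.08), against a median of 0.0331 over all 12287 CG-dense promoters. All 8 lay above that median, and 5 of 8 (Pax6, Neurog1, Olig2, Nkx2-2 and Pax3) were above the 75th percentile, with Nkx2-2 at the 95.5th and Sox1 at the 62.1st. With the TSS at the 5′ end of the gene record, Nkx2-2 was at the 78.7th and Pax6 at the 92.4th percentile. With 50 ng, 7 of 8 islands were above the median of their libraries (Neurog2 at the 42.2nd percentile), and with 5 ng 6 of 8, where the median of all promoters was 0 and the islands of Nkx2-2 and Lhx2 had no read. The median of the 8 islands was 0.157 and 0.0506 at these inputs. These percentiles are a description with no test. Few reads stand behind them, since 71 of the 1014 island CGs (7.0%) had reads in both 500-ng libraries.

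The uCG counts of the same islands were much higher. The median relative value was 2.51, close to the 2.30 of all CG-dense promoters. Pax3 was highest with 5.10, 3.53 and 2.96 uCG reads per CG in the 3 libraries. Lhx2 with 1.10, 0.989 and 0.644 and Sox1 with 1.64, 1.27 and 0.930 were lowest and did not overlap with the other 6 genes when set relative to the library mean, where Lhx2 lay at the 4.47th and Sox1 at the 10.4th percentile. Their islands were among the 3 of the 8 with most CGs per 100 bp (11.3 for Lhx2, 11.6 for Sox1 and 12.4 for Pax6, against a median of 10.4). Pax6, the densest, was not low in uCG, at the 63.1st percentile. The remaining islands were below that median density, from 7.47 (Pax3) to 9.89 (Neurog1). The islands highest in 5hmC, those of Nkx2-2, Pax3, Neurog1 and Olig2, were among these less dense ones. Across all 12287 promoters the uCG value of an island fell with its CG density (Spearman rho −0.649 across genes, which are not independent replicates), and the 5hmC value less so (rho −0.262). The part of CG density in the island values was not tested.

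**Figure D2:**
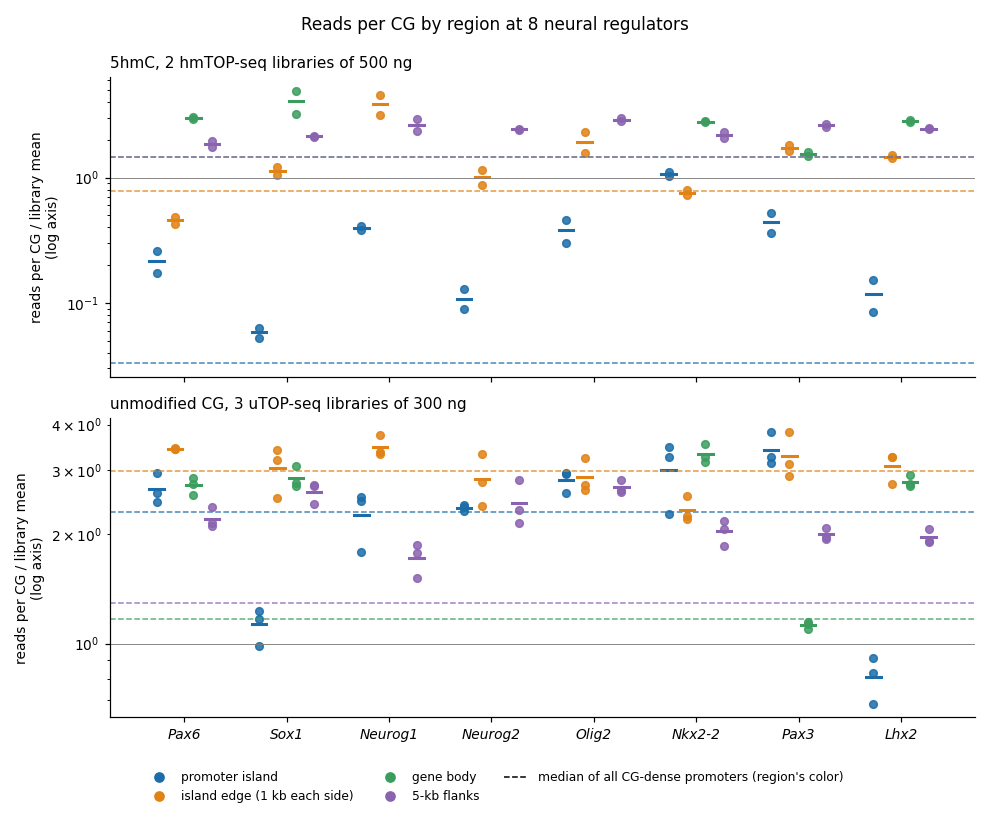
Relative reads per CG (log axis, library mean = 1) in promoter island, island edge, gene body and flanks of the 8 genes, with 1 point per library, bars for the mean and dashed lines for the median of all CG-dense promoters in the color of the region. All 8 islands lie above the 5hmC median of 0.0331, and the dashed lines of body and flanks coincide in the upper panel.

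5hmC rose from the promoter island to its edge in 6 of the 8 genes by edgeR's quasi-likelihood test with Benjamini-Hochberg adjustment over all features, and 0 of 8 fell. The share is near the background, in which 86.3% of 12212 CG-dense promoters were called higher at the edge and 1.10% lower. At an unadjusted p under 0.05 and by DESeq2 the members called were again 6 higher and 0 lower, where 10745 promoters in all passed the unadjusted threshold and DESeq2 called 10295 higher and 107 lower. Sox1 had the largest change, from the island values above to 1.84 and 1.57 reads per CG at the edge (log2 fold change 4.27 ± 0.37 SE, adjusted p = 1.02e-08). With fixed distances from the TSS in place of island ends it was 1.46 at Sox1, whose island is the longest, and 3.95 at Neurog1. Lhx2 followed with 2.19 and 2.26 reads per CG (3.65 ± 0.50, adjusted p = 2.75e-06). Neurog1 had the highest edge of all 8 with 6.95 and 4.75 reads per CG (3.27 ± 0.22, adjusted p = 4.36e-10), and no other member overlapped with it. Neurog2 had 1.76 and 1.29 (3.22 ± 0.40, adjusted p = 8.81e-07), Olig2 3.52 and 2.35 (2.36 ± 0.19, adjusted p = 4.10e-09) and Pax3 2.47 and 2.73 (1.98 ± 0.29, adjusted p = 7.26e-06). With an edge of 500 bp the change was 0.82 at Pax3, which then did not pass the test, and 1.10 at Olig2.
Pax6 and Nkx2-2 did not pass the test. The Pax6 edge had 0.651 and 0.721 reads per CG (log2 fold change 1.09 ± 0.55 SE, adjusted p = 0.0738). Its upstream side spans another island (chr2:105675189-105675602), whose CGs are left out of the edge and had 0.361 and 0.389 reads per CG. Much of that side thus lies between 2 islands. Pax6 was called higher with an edge of 2 kb (2.51) and with fixed distances from the TSS (2.2). The TSS at the 5′ end of the gene record also gave a call for Pax6 (1.93). The Nkx2-2 edge, at 1.21 and 1.08 reads per CG, was below its island in both libraries (−0.51 ± 0.35 SE, adjusted p = 0.18). The value of Nkx2-2 depended on the setting, since it was called lower with an edge of 2 kb (−0.97) and with fixed distances (−0.92), and higher with the TSS at the 5′ end of the gene record (3.66). In that last setting all 8 genes and 9633 promoters in all were called higher.
The median log2 change of the 8 genes was 2.79, against 4.10 over all CG-dense promoters. This change is a ratio to the island, where the median relative value was 0.297 for the 8 genes and 0.0331 over all. A smaller change therefore does not mean a lower edge. In relative values the edges had a median of 1.30 (range 0.455 at Pax6 to 3.87 at Neurog1), against 0.787 over all. Their median percentile was 66.2, with Neurog1 at 95.6 and Pax6 at 33.5, and 3 of 8 were above the 75th percentile. The Pax6 edge was at 56.7 with an edge of 2 kb and at 86.5 with the TSS of the gene record.

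The edges of a single island could differ. At Olig2 the downstream edge had 6.15 and 3.79 5hmC reads per CG and the upstream edge 0.645 and 0.774. At Nkx2-2 it was 2.57 and 2.29 downstream and 0.524 and 0.476 upstream. At Lhx2 the downstream edge was also the higher one, with 2.60 and 2.93 against 1.81 and 1.62, and at Pax6 with 0.667 and 0.963 against 0.625 and 0.312. Neurog2 went the other way, with 1.0 and 0.684 downstream and 2.22 and 1.66 upstream. In these 5 genes the libraries of one side did not overlap with those of the other, whereas they overlapped at Sox1, Neurog1 and Pax3, and no test of the sides was made.
The distance from the island end showed where 5hmC set in. Over the 8 genes together, the mean relative value was 0.303 within 250 bp inside the island end, 0.905 within 250 bp outside it, 1.14 from there to 500 bp, 2.14 from 500 to 1000 bp and 2.91 from 1000 to 2000 bp. The same bins of all CG-dense promoters had 0.217, 0.717, 1.24, 1.71 and 1.82. In the last of these bins Lhx2, Pax3 and Neurog1 were highest with 4.51, 4.60 and 4.34, whereas Nkx2-2 was at 0.293 there and at 4.25 from 2000 to 5000 bp.

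**Figure D3:**
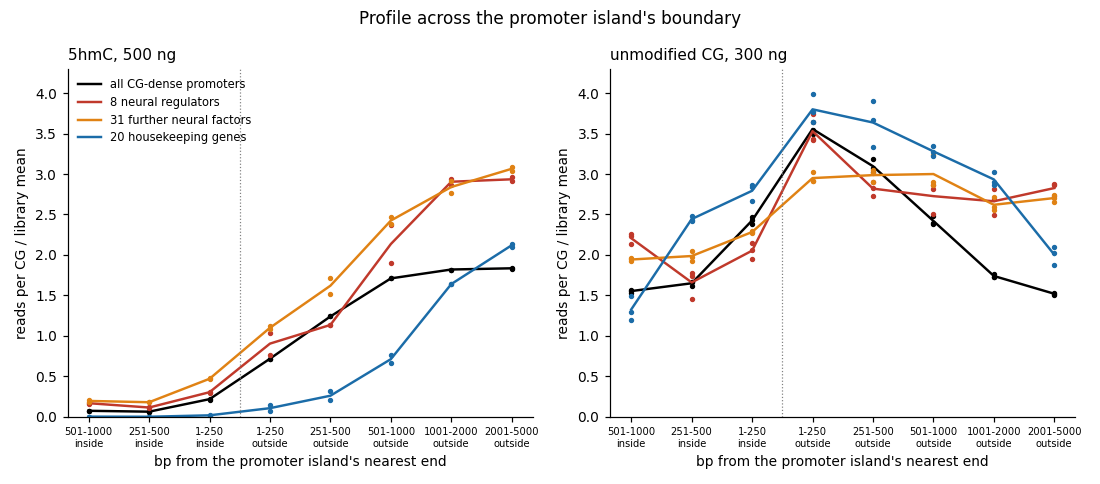
Mean relative reads per CG, pooled over CGs, by distance in bp from the nearest end of the promoter island (dotted line) for the 8 genes, 31 further neural factors, 20 housekeeping genes and all CG-dense promoters, with points for single libraries. 5hmC of the 8 genes reaches 2.91 from 1000 to 2000 bp against 1.82 over all, and their uCG signal is 2.83 from 2000 to 5000 bp against 1.52 over all.

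uCG changed less between island and edge. It was higher at the edge in 4 of 8 genes (Pax6, Sox1, Neurog1 and Lhx2) and lower in 0 by edgeR, where 50.2% of 12230 features were called higher and 13.3% lower. At an unadjusted p under 0.05 it was 5 higher and 1 lower, with 8110 promoters in all, and by DESeq2 3 and 0, with 5204 promoters higher and 1050 lower. The log2 fold change was 1.92 ± 0.19 SE at Lhx2 (adjusted p = 9.99e-23) and 1.42 ± 0.12 at Sox1 (adjusted p = 5.65e-31), the genes with the lowest islands. It was 0.62 ± 0.13 at Neurog1 (adjusted p = 6.26e-06) and 0.37 ± 0.14 at Pax6 (adjusted p = 0.0171). The call of Pax6 was lost by DESeq2 (0.37) and without replicate 2 (0.31) or replicate 3 (0.35). The other 4 genes had values from −0.37 (Nkx2-2, adjusted p = 0.0513) to 0.25 (Neurog2, adjusted p = 0.0538). The median was 0.31 over the 8 genes and 0.34 over all features.

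In the gene bodies, 5hmC and uCG were both high. 5hmC was higher in the body than in the island in 5 of 5 genes with body CGs, where 91.6% of 11911 features were called higher and 2.77% lower. The Pax6 body had 4.67 and 4.41 5hmC reads per CG (log2 fold change against the island 3.81 ± 0.26 SE, adjusted p = 7.18e-04), the Lhx2 body 4.43 and 4.17 (4.60 ± 0.31, adjusted p = 7.23e-04) and the Nkx2-2 body 4.29 and 4.14 (1.38 ± 0.22, adjusted p = 0.00387). The 9 body CGs of Sox1 had 7.56 and 4.78 reads per CG (6.10 ± 0.57, adjusted p = 0.00103). Pax3, the longest gene with 95.87 kb, had 2.26 and 2.41 (1.82 ± 0.23, adjusted p = 0.00185) and lay apart from the other 4. By DESeq2 4 of 5 were called, without Nkx2-2 at an equal 1.38, where 9956 features were called higher and 108 lower.
In relative values the 5 bodies had a 5hmC median of 2.85 against 1.45 over 11951 features, and 4 of 5 were above the 75th percentile. Exon CGs of the Pax6 body had 7.05 and 7.14 5hmC reads per CG and its intron CGs 3.71 and 3.31. Exons were also the higher ones at Pax3, with 3.72 and 4.35 against 2.15 and 2.26, and at Lhx2, with 5.24 and 5.26 against 4.3 and 4.0. Nkx2-2 was the exception among these 4 genes, with 1.95 and 1.79 in exons and 4.58 and 4.42 in introns, and no test of exons against introns was made.

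The uCG level of 4 of the 5 bodies was among the highest of all features. Against the island, uCG was higher in the body at Sox1 (log2 fold change 1.32 ± 0.20 SE, adjusted p = 1.54e-07) and Lhx2 (1.78 ± 0.12, adjusted p = 1.02e-16) and lower at Pax3 (−1.60 ± 0.10, adjusted p = 8.23e-17). In the background the direction was mostly the other, with 10.2% of 11915 features higher and 76.0% lower. Pax6 had 0.03 ± 0.10 (adjusted p = 0.77) and Nkx2-2 0.14 ± 0.13 (adjusted p = 0.326). In relative values uCG of the bodies had a median of 2.79, against 1.17 over all features. Nkx2-2 lay at the 98.1st, Sox1 at the 96.0th, Lhx2 at the 95.6th and Pax6 at the 95.2nd percentile, but Pax3 with 1.5, 1.19 and 1.09 reads per CG at the 46.8th. Pax3 is thus the 1 of the 5 genes whose body was near the median of all features in uCG.
The flanks carried more of both as well. The median relative value of the flanks was 2.44 for 5hmC and 2.12 for uCG, against 1.46 and 1.29 over all CG-dense promoters, and all 8 genes were above both medians.

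**Figure D4:**
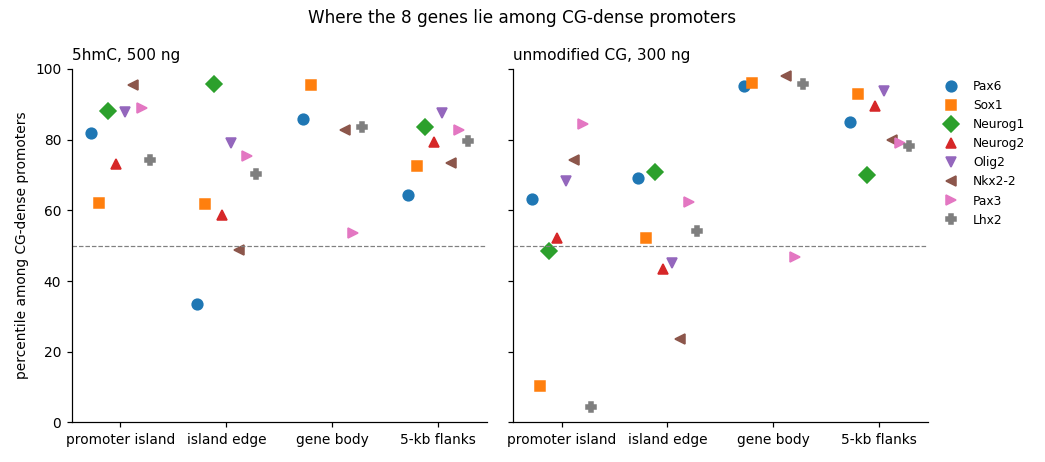
Percentile of each gene among all CG-dense promoters (vertical axis) for the mean relative reads per CG of each region, for 5hmC at 500 ng and for uCG. All 8 genes lie above 50 in 5hmC of island and flanks and in uCG of the flanks, and 4 of the 5 gene bodies lie above 95 in uCG.

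5hmC and uCG reads were counted at the same CGs. Of the 2386 body CGs of the 5 genes, 45.3% had 5hmC reads in both 500-ng libraries, 33.8% had uCG reads in all 3 uTOP-seq libraries and 22% had both. In the islands the same shares were 7.0%, 32.5% and 4.14%, and at the edges 36.1%, 48.7% and 20.7%. Over all CGs of the genome 22.6% had 5hmC reads in both libraries and 14.1% uCG reads in all 3.
Some other islands inside the loci carried far more 5hmC than the promoter islands. An island 15.4 kb downstream of the Lhx2 TSS (chr2:38354450-38354890, 35 CGs) had 3.94 and 5.80 reads per CG, and an island 5.36 kb downstream of the Pax6 TSS (chr2:105681378-105681589, 22 CGs) 5.50 and 4.50. In contrast, the Lhx2 island at 12.2 kb (116 CGs) had 0.147 and 0.147, as low as its promoter island.

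A list of 32 further neural transcription factors, of which 31 are CG-dense, had values like those of the 8 genes. Their islands had a 5hmC median of 0.262 and their edges one of 1.71, and 29 of 31 islands were above the median of all CG-dense promoters. In uCG their bodies had a median of 2.51, and 20 of the 26 with body CGs were above the 75th percentile. Their flanks had medians of 2.57 for 5hmC and 2.2 for uCG. 28 of 31 were called higher at the edge and 1 lower, near the 86.3% and 1.10% of all promoters. The homeobox genes Nkx6-2 and Lmx1b had the highest edges with relative values of 4.16 and 3.83, and Nkx2-1, a forebrain homeobox gene, and the proneural Atoh1 the lowest with 0.270 and 0.493.
A list of 20 housekeeping genes lay mostly below the median of all CG-dense promoters in 5hmC of island and edge. Of their bodies 9 of 20 and of their flanks 13 of 20 were above the median. Their islands had a median of 0.00959 and their edges one of 0.339, and 1 of 20 islands was above the median of all promoters. Of their edges 14 of 20 were called higher than the island, where the same 86.3% of all promoters were. Their median log2 change from island to edge was 4.95, against 4.1 over all promoters. It is a ratio to islands with almost no 5hmC reads and does not mean high edges. Actb (beta-actin) and Cct5 (a chaperonin subunit) had the highest edges with 1.44 and 1.07, and Hsp90ab1 (a heat shock protein) and Gapdh (a glycolytic enzyme) the lowest with 0.0385 and 0.0446. In uCG the islands of the housekeeping genes had a median of 2.83 and those of the further neural factors 2.25. Housekeeping bodies were also high in uCG, with a median of 1.68 against 1.17 over all features and 11 of 20 above the 75th percentile. The uCG median of their flanks was 1.66 against 1.29, so high uCG outside the island was not particular to neural genes. Without the genes on the X chromosome, which E14TG2a cells carry once, the 5hmC edge medians were 0.339 for 18 housekeeping genes and 1.72 for 30 neural factors.
The 5 genes most like the median of the 8, by Euclidean distance over 6 scaled log2 values of island, edge and body in both assays, were Pcdhga11, Ppp1r14a, Cacnb1, Csrp2 and Kazald1, with distances from 0.519 to 0.638 where the median over all other features was 2.81. The members with a body were themselves at 1.0 (Pax6) to 2.09 (Lhx2).

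The Sox1 locus lies on chromosome 8, whose excess of reads in the 500-ng libraries, 1.29 in both, was not matched in uTOP-seq, with 1.04 to 1.05, so that the 5hmC and uCG values of Sox1 stand against different chromosome levels. Chromosome 2, with Pax6, Nkx2-2 and Lhx2, was at 1.06 in both 500-ng libraries and at 1.09 to 1.10 in uTOP-seq. Relative to the mean of its own chromosome, the Sox1 edge moved from the 61.9th to the 54.2nd percentile and its island from the 62.1st to the 57.1st. The part of the chromosome in the Sox1 values was not tested.

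With less input DNA, no member locus was called different, while the number of CGs read in both replicates fell. Comparing gene spans with 5 kb on both sides, 0 of 8 loci were called between 50 and 500 ng by edgeR, where 0.00504% of 19858 loci were called, and 0 of 8 between 5 and 500 ng, where 0% of 18807 were. At an unadjusted p under 0.05, 1 member (Nkx2-2) and 2434 loci in all differed at 50 ng, and 2 members (Pax6 and Pax3) and 2245 loci in all at 5 ng, and DESeq2 called 0 members and 36 loci in each comparison. The log2 fold changes of the 8 loci were between −0.17 and 0.15 at 50 ng and between −0.53 and 0.33 at 5 ng. Pax6, the highest locus, had relative values of 2.34 and 2.21 with 500 ng of DNA, 2.32 and 2.14 with 50 ng and 1.92 and 1.93 with 5 ng. Neurog2 had 1.04 and 1.04 in the 500-ng libraries, 1.02 and 0.958 in the 50-ng libraries, but 0.249 and 1.15 in the 5-ng libraries, from 65 and 309 reads, and without the first of these its log2 fold change was 0.19 in place of −0.53. Neurog1 had 2.41 and 1.54 at the lowest input. With a single 5-ng library left in the fit, 3 of the 8 loci were called without replicate 1 and 5 without replicate 2. In these fits 5308 loci were called higher and 5400 lower, and 5217 and 5255, so that the calls of the members do not stand out, and the lone library is assumed to vary like the others. In simulated counts with the spread of these libraries, 97.5% of loci changed 2-fold were recovered at 50 ng and 28.5% at 5 ng, so that a change of that size could be missed at 5 ng.
The number of member CGs with reads in both replicates fell from 2021 of 5570 at 500 ng to 983 at 50 ng and 155 at 5 ng. In the islands it fell from 71 to 10 and 1, with the single island site left at 5 ng in Olig2. Pearson r between replicates over the 5570 CGs was 0.798, 0.452 and 0.173 in the same order. Neighboring CGs share reads and depth, and these are descriptions across CGs.

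**Figure D5:**
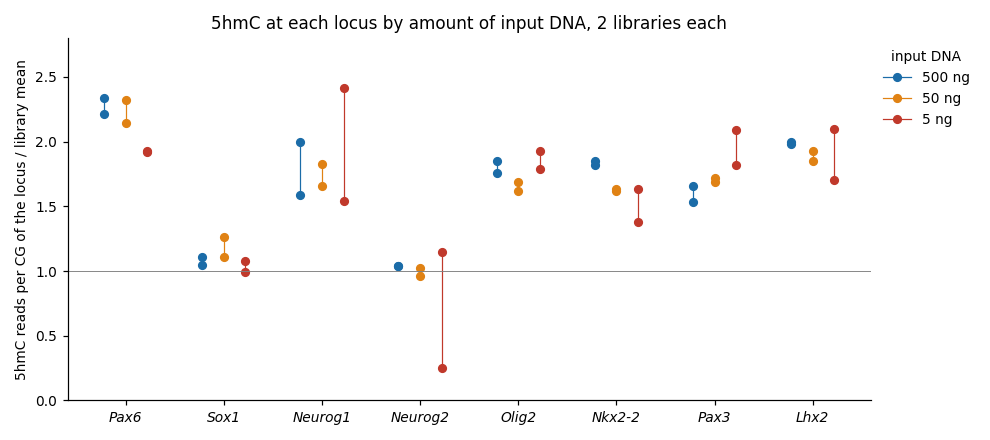
5hmC reads per CG of each locus relative to the library mean (vertical axis) at 500, 50 and 5 ng, with 1 point per library and a line between the replicates. The replicates of 5 ng are farthest apart at Neurog1 (2.41 and 1.54) and Neurog2 (0.249 and 1.15).

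The control libraries without BGT labeling had 7 reads in the 8 loci, 5 and 2 in the 500-ng controls and none in the others, where 9.08 would fall at the mean of these libraries. Lhx2 had 4 of them and Olig2, Nkx2-2 and Pax3 1 each. Pax6, Sox1, Neurog1 and Neurog2 had 0 of the 34811 control reads, which allows up to 3 reads or 0.00862% of them, for counting error alone. The controls hold far fewer reads than the labeled libraries, and whether this comes from their sequencing depth or from the lack of labeled DNA was not tested.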

How the data were processed

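hmTOP-seq and uTOP-seq libraries of E14TG2a DNA were analyzed as the authors deposited them. The authors trimmed Ion Proton reads, discarded short and poorly mapped ones after alignment to mm10, and collapsed duplicates without molecular identifiers. The SE values come from edgeR's quasi-likelihood test and carry the spread between technical libraries. The bound given for the control reads covers counting error only. The aligner is not given in the sources used here. The deposited values are read counts per CG, without normalization, with strands merged for 5hmC and separate for uCG. They were summed here. CG islands were called on the soft-masked sequence (at least 200 bp, GC share of at least 0.5, observed over expected CG of at least 0.6), which gave 16218 islands.

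Regions were compared with the quasi-likelihood test of edgeR 4.0.16 (R 4.3.3), with the library as a term and the library size times the number of CGs as offset. Loci were compared with TMM normalization and at least 10 reads in every library. The threshold was 0.05 on the p-value adjusted by the Benjamini-Hochberg method over all features. All other values used Python 3.11.15 with numpy 2.4.6 and pandas 2.3.3. On simulated counts, 64.5% of 2-fold and 92% of 4-fold differences between edge and island were recovered for 5hmC, and 99% and 100% for uCG. These differences were placed only in features with at least 50 reads, so recovery at fewer reads was not measured. Of unchanged features, 5% and 4% were called for 5hmC and 6.5% and 2.5% for uCG. The genes described were the 8 members, the 2 highest and 2 lowest edges of each further list, the 5 genes nearest in likeness, with a pseudocount of 0.05, and the strongest CG of each locus. The single windows, edge sides and further islands were chosen after their values were seen. The members and lists were chosen with earlier results of these data known.

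Replicate numbers were not taken as a pairing. The correlation of deviations of equally numbered libraries was 0.016 between 500 and 50 ng, −0.00751 between 500 and 5 ng and 0.00368 between 50 and 5 ng. Alternatives covered the edge width, the island call, the TSS, capped counts, filters, DESeq2 1.42.0, TMM, a replicate block and leaving out replicates.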

Additional observations from a re-analysis of the deposited data

How the results depend on the processing

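The count of members with more 5hmC at the edge than in the island was 5 to 8 over the alternatives (6 as reported), where 8145 to 11391 promoters in all were higher. The lowest count came with an edge of 500 bp, where Pax3 was lost. The count of bodies was 4 (DESeq2, without Nkx2-2) or 5 (5 as reported). With an edge of 2 kb, 1 member was lower in 5hmC and 2 in uCG, where 3322 promoters in all were lower in uCG. With fixed distances from the TSS, 1 member and 635 promoters were lower in 5hmC and 3 members and 5203 promoters in uCG, and the uCG change was −0.25 at Sox1, −0.25 at Neurog2, −0.45 at Olig2 and 0.02 at Nkx2-2. An edge of 500 bp gave 1 lower member and 854 lower promoters in uCG. The TSS at the 5′ end of the gene record gave 3.66 for 5hmC and 1.21 for uCG at Nkx2-2 and −0.08 for uCG at Pax6. DESeq2 gave 1050 promoters with lower uCG at the edge and 108 with lower 5hmC in the body. Islands on unmasked sequence gave −0.02 for uCG in the Pax6 body. Without 1 uTOP-seq replicate, 0 to 1 members were lower in uCG at the edge (1 without replicate 2), and the change was −0.03 to 0.08 at Olig2, −0.24 to 0.05 at Pax3, and, for the body, −0.06 to 0.11 at Pax6 and −0.08 to 0.28 at Nkx2-2. The median edge percentile of the members, 66.2, was 67.8 relative to the own chromosome, 63.6 at 50 ng, 63 at 5 ng, 63.1 with an edge of 500 bp, 76.7 with 2 kb and 77.9 with the TSS of the gene record. Between 50 and 500 ng, DESeq2 called 13 loci higher and 23 lower, the replicate block 45 and 85, and counts capped at 50 reads 2 higher, with 0 members in each. The numbers do not pair the libraries. Between 5 and 500 ng, DESeq2 called 21 higher and 15 lower and the replicate block 12 and 8, again with 0 members. Without 1 library, the 50-ng comparison gave 0 to 1321 higher and 1 to 1493 lower loci and 0 to 1 members (Sox1, without 50-ng replicate 2), and changes of −0.08 to 0.04 at Pax6 and −0.18 to 0.15 at Neurog1. The comparison at 5 ng gave 0 to 5308 higher and 0 to 5400 lower loci and 0 to 5 members, and changes of −0.09 to 0.03 at Sox1, −0.19 to 0.45 at Neurog1, −2.03 to 0.19 at Neurog2 and −0.20 to 0.11 at Lhx2. The high counts all come from fits with 1 library at the lower input, which is assumed to vary like the 500-ng pair. The cause of these shifts was not tested. Without a 500-ng replicate, the 5hmC edge and body tests have no residual degrees of freedom and were not run. Depth limits the island values, of which several rest on fewer than 30 reads per library, and the 5-ng libraries, where few CGs were read in both replicates.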
